A study of Bos taurus with 16 samples.

Results

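The 7 genes described here, PDGFRA, GATA4, GATA6, SOX17, HNF4A, FOXA2 and APOA1, are genes of the hypoblast lineage, taken from a list of names that was drawn up with earlier results of these data known. Each was found once in each of the 3 expression tables, which list 38959, 37429 and 28303 genes. They were followed in 12 single day 8 bovine blastocysts and in 4 libraries of bovine embryonic stem cells (bESCs), all labelled wild type. The study asked what LY2955303 (LY), an inhibitor of retinoic acid receptor gamma, does to in vitro fertilized bovine embryos and to bESCs.

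The first blastocyst table holds 3 embryos cultured from the 2-cell stage with 10 μM LY (LY10) and 3 cultured with the vehicle dimethyl sulfoxide (DMSO). The second holds 2 embryos treated from the 2-cell stage (cell2_LY), 2 treated from the 16-cell stage (cell16_LY) and 2 vehicle controls (LY_DMSO), and its labels give no dose. Per the methods, embryos of every group grew with leukemia inhibitory factor, FGF2 and IGF1 in the medium. The bESC table holds 2 libraries with LY (bESC_LY), given per the study's text at 10 μM for 3 days, and 2 libraries labelled with the TiFX culture medium (bESC_tifx). The study's text sets these cells against DMSO, while the labels of the control name only the medium. Both bESC groups grew on mouse embryonic fibroblast feeders in a medium that contains inhibitors of MEK, Wnt signaling, DOT1L and FGF receptors beside a GSK3 inhibitor. No label says that the bESC libraries came from separate cultures, so their p-values measure only the spread between these libraries. For the embryos no label gives a culture well or fertilization run, so those p-values measure only the spread between single embryos.

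The hypoblast, or primitive endoderm, is the layer that forms on the inner cell mass facing the blastocyst cavity and later lines the yolk sac. In mammals FGF signaling through MEK favours it over the epiblast. GATA6 is an early transcription factor of the lineage, PDGFRA is a receptor on its precursor cells, and SOX17, GATA4, FOXA2 and HNF4A follow as the cells mature into an endodermal epithelium that secretes apolipoproteins such as APOA1. In cattle GATA6 is also made by the trophectoderm, the outer layer of the blastocyst, and PDGFRA is also a receptor of fibroblasts. A whole embryo was sequenced in each library, so fewer cells of a type and less RNA per cell cannot be told apart.

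Depth was 7905768 to 15137567 reads on genes per library in the first blastocyst table, 11336091 to 17343140 in the second and 29055323 to 31230432 in the bESC table. KRT8, a keratin of the trophectoderm, led the trophectoderm markers in all 12 blastocysts, and the list summed to between 2573 and 9548 FPKM (read pairs per kilobase of gene model, scaled to library size) per blastocyst. All 9 epiblast markers in the blastocyst tables had reads in all 12 embryos. A list of 12 cumulus and granulosa genes summed to 11.3 to 113 FPKM, led by CYP11A1 or HSD3B1. The bESC libraries had 2331 to 2486 FPKM summed over the epiblast markers and 101.4 to 300 FPKM over the trophectoderm markers. Leaving out DMSO replicate 3 raised the share of tested genes past the threshold from 14.7% to 24.2%. Leaving out any other library of the first table lowered it to between 9.64% and 13.7%. Calls of the first table are given with and without DMSO replicate 3. That library was picked by its effect on the calls, so p-values without it are a description and lend no support.

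The blastocyst tables use RefSeq gene models, whose positions match ARS-UCD2.0 for 98.8% of the identifiers shared with its annotation. There PDGFRA (gene 282301) lies on chromosome 6 from 69723776 to 69771549, GATA4 (327716) on chromosome 8 from 7642415 to 7721284, and GATA6 (654400) on chromosome 24 from 34161968 to 34194339. SOX17 (534010) lies on chromosome 14 from 22229926 to 22231726 and APOA1 (281631) on chromosome 15 from 27490619 to 27505478. HNF4A (509200) and FOXA2 (101906272) share chromosome 13, at 72825806 to 72855373 and at 41478502 to 41546053. The bESC table uses Ensembl models, and the lengths differ most for FOXA2 (21759 bases against 2350) and GATA4 (11228 against 3800). The RefSeq model of APOA1 overlaps APOA4 on its own strand and LOC107133155 on the other, and whether counting used strand is not given in the sources used here. APOA4 had at most 6 reads in any blastocyst. No other gene model overlaps the remaining members.

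Levels in the blastocysts fell into 3 tiers. GATA6, APOA1 and PDGFRA had the highest FPKM of the 7 in all 12 embryos, HNF4A came next in 11 of them, and GATA4, SOX17 and FOXA2 were near the limit of detection. GATA6 led in 7 embryos and APOA1 in 5. GATA6 ranged from 38.2 to 107 FPKM, with a median of 59.9, which placed it above 89.0% of the detected genes in its lowest library. Its highest level was 2.81 times its lowest. APOA1 ranged from 17.1 to 203 FPKM, with a median of 41.8. These 2 neighbours in the order do not differ beyond their spread. PDGFRA ranged from 0.526 to 58.2 FPKM, a 111-fold span, with a median of 12.6. HNF4A spanned 0.168 to 7.33 FPKM, with a median of 2.35.

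GATA4 had 4 to 20 reads per blastocyst, or 0.0270 to 0.137 FPKM, and 131 reads over all 12. SOX17 had 7 reads in all, spread over 4 embryos, and FOXA2 had 10 reads spread over 6. A limit of 3 reads corresponds to 0.311 FPKM of SOX17 and 0.0176 FPKM of FOXA2 in the shallowest library. SOX17 and FOXA2 were therefore at or under detection in nearly every blastocyst, and no change in them could be read at this depth. The group means below are given with the standard deviation (SD), and the plot of levels by library shows these tiers and the span of PDGFRA.

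**Figure D1:**
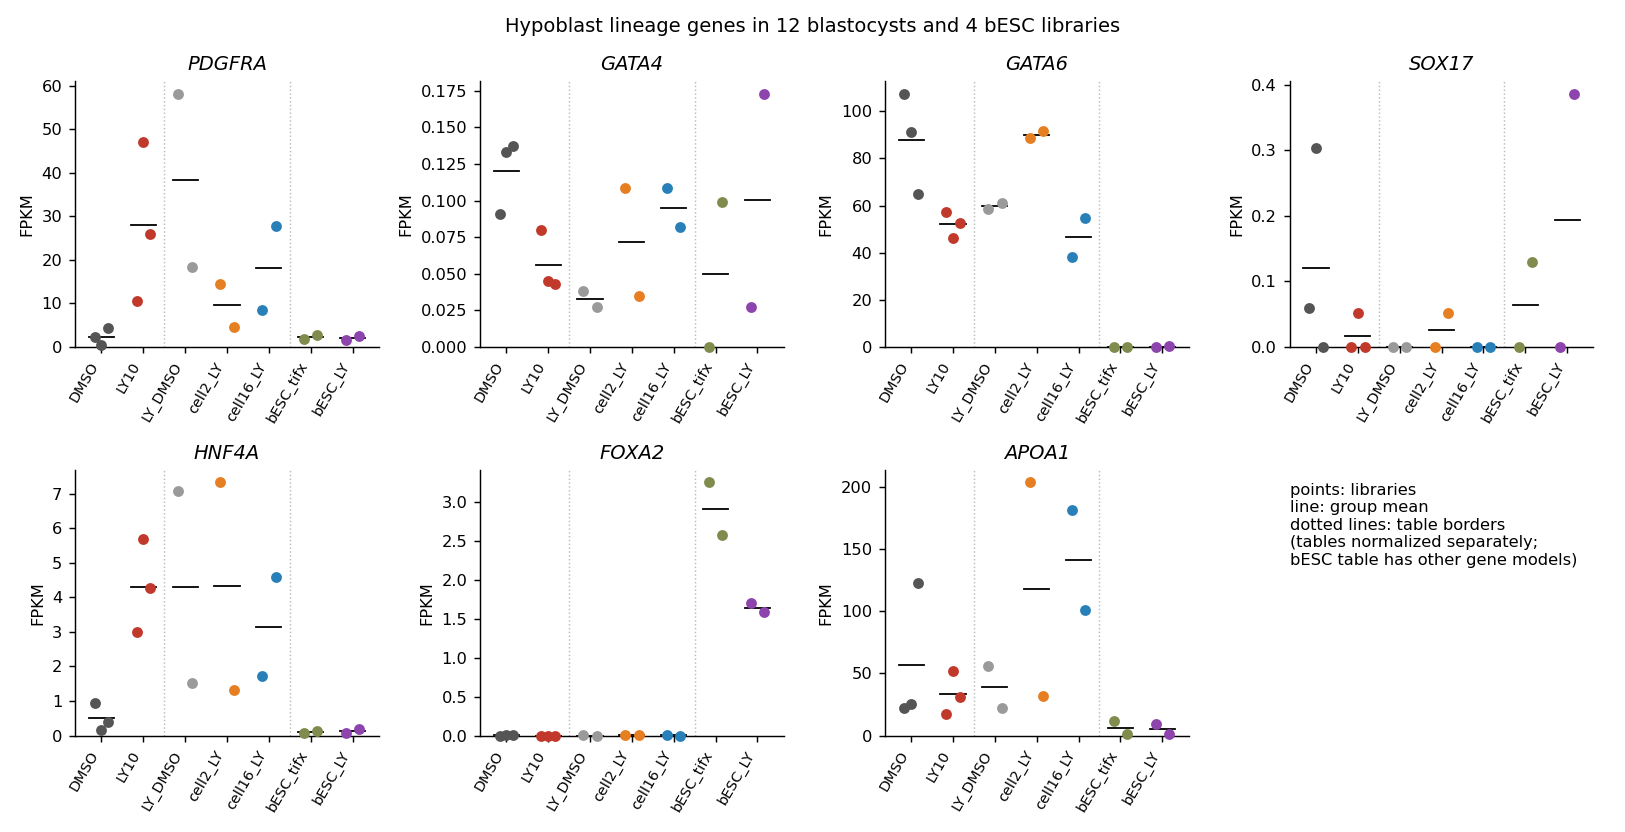
FPKM of the 7 genes in each library, on linear axes that start at 0, with 1 panel per gene, 1 point per library and a black line at the mean of each group. Dotted lines separate the 3 tables, which were normalized separately. PDGFRA and HNF4A are low in all 3 DMSO embryos and higher in both LY10 and LY_DMSO embryos, GATA6 is near 0 in the bESC libraries, and FOXA2 stands at 1.59 to 3.26 FPKM there and near 0 in blastocysts.

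In LY10 blastocysts, PDGFRA and HNF4A rose and neither group overlapped the other, while GATA6 was lower in every LY10 embryo by less than the threshold. A gene was called when limma gave an unadjusted p under 0.05 and the log2 fold change was above 1 in size. Of the 7 genes 5 had enough reads to be tested, and 2 were called higher and 0 lower. Over all 14249 tested genes 6.2% were called higher and 8.51% lower. None of the 5 passed 0.05 after limma's p was adjusted over all tested genes, nor with voom weights, while 3 had an unadjusted p under 0.05 (PDGFRA, HNF4A and GATA6). With sample weights, which lower the influence of libraries that stand apart, these 3 had adjusted limma p-values of 0.0196, 0.0245 and 0.0350. Only 2 genes of the table passed after adjustment.

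PDGFRA, the receptor of the list, stood at 2.36, 0.526 and 4.26 FPKM in DMSO replicates 1 to 3 (mean 2.38 ± 1.87 SD, n = 3). In LY10 replicates 1 to 3 it stood at 10.6, 47.1 and 26.0 FPKM (27.9 ± 18.3 SD, n = 3). The lowest LY10 embryo was above the highest DMSO embryo. The fitted log2 fold change was 3.74 (SE 0.76, 95% interval 2.01 to 5.48), with a limma p of 0.000921 and an adjusted p of 0.0783. Without DMSO replicate 2, the lowest embryo, it was 2.88, and without DMSO replicate 3 it was 4.38 with an adjusted limma p of 0.0162. With any other library left out, the adjusted limma p was 0.170 to 0.210.

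HNF4A, a nuclear receptor that drives lipid and transport genes in visceral endoderm and liver, moved alongside. It had 0.951, 0.168 and 0.393 FPKM in DMSO embryos, from 58, 8 and 17 reads. The LY10 embryos had 2.99, 5.68 and 4.27 FPKM, from 104, 401 and 156 reads, all above the DMSO embryos. The log2 fold change was 3.31 (SE 0.61, 95% interval 1.93 to 4.69), with a limma p of 0.000449 and an adjusted p of 0.0783. Without DMSO replicate 3 it was 3.29, with an adjusted limma p of 0.0255, and without DMSO replicate 2 it was 2.72.

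The other transcription factors did not share that direction. GATA6 stood at 107, 91.3 and 64.8 FPKM in DMSO embryos (87.9 ± 21.6 SD, n = 3) and at 57.3, 46.2 and 52.6 FPKM in LY10 embryos (52.0 ± 5.55 SD, n = 3). Every LY10 embryo was below every DMSO embryo, and the spread among LY10 embryos was small. Its log2 fold change of -0.73 (SE 0.24) had a limma p of 0.0150 and an adjusted p of 0.132, and its size kept it from being called. Without DMSO replicate 3 the log2 fold change was -0.93 with an adjusted limma p of 0.0290. With any other library left out, the adjusted limma p was 0.254 to 0.312. The unadjusted limma p was 0.0645 without DMSO replicate 1 and 0.0506 without LY10 replicate 2. GATA4 had 14, 16 and 15 reads in DMSO embryos and 7, 8 and 4 in LY10 embryos. No LY10 embryo had as many reads as any DMSO embryo. The log2 fold change of normalized counts was -1.03, with a 95% interval of -2.79 to 0.74. SOX17 had 5 reads over the DMSO embryos and 1 over the LY10 embryos, and FOXA2 had 5 and 0.

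APOA1, the main protein of high-density lipoprotein, was not separated by treatment. DMSO embryos had 22.3, 25.3 and 123 FPKM and LY10 embryos had 17.1, 51.9 and 30.7 FPKM, so the groups overlapped. The log2 fold change was -0.45 with a 95% interval of -1.93 to 1.03, and without DMSO replicate 3, the highest of the 6, the value was 0.34.

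Within a library, the ratio of PDGFRA to GATA6 does not depend on library size. It was 0.0220, 0.00576 and 0.0658 in DMSO embryos and 0.186, 1.02 and 0.494 in LY10 embryos. On the log2 scale the means differed by 4.48 without overlap. In the second experiment the ratio was 0.1645 and 0.0492 in cell2_LY and 0.993 and 0.300 in LY_DMSO, a log2 difference of -2.60, also without overlap and in the other direction. In cell16_LY it was 0.224 and 0.506, which overlapped LY_DMSO. The pair was taken after both genes' values were seen, so the ratio is a description. Groups of this size can reach no smaller exact permutation p than 0.1 in the first experiment and 0.333 in the second.

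In the second experiment the same comparison, LY from the 2-cell stage, did not show PDGFRA or HNF4A higher than in the controls. PDGFRA was called lower in cell2_LY, GATA6 was higher in both cell2_LY embryos without being called, and HNF4A overlapped. Of 5 tested genes 0 were called higher and 1 lower, against 8.71% and 8.34% of all 14529 tested genes.

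PDGFRA had 14.6 and 4.51 FPKM in cell2_LY embryos and 58.2 and 18.3 FPKM in LY_DMSO embryos. Both treated embryos were below both controls, though the higher treated and the lower control embryo lay close. The log2 fold change was -2.01 (SE 0.74, 95% interval -3.70 to -0.31), with a limma p of 0.0255 and an adjusted p of 0.153. The call was lost without cell2_LY replicate 2 (-1.16) or without LY_DMSO replicate 1 (-1.18), and under quantile normalization (-1.65). HNF4A had 7.33 and 1.31 FPKM in cell2_LY and 7.08 and 1.53 FPKM in LY_DMSO, a log2 fold change of -0.08 with an interval of -2.20 to 2.04. In each group 1 embryo was high and 1 low.

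GATA6 had 88.5 and 91.7 FPKM in cell2_LY and 58.6 and 61.2 FPKM in LY_DMSO. The replicates of each group were close and the groups did not overlap. The log2 fold change was 0.59 (SE 0.26, 95% interval -0.01 to 1.19), and the gene was not called. APOA1 was at 203 and 31.7 FPKM in cell2_LY against 55.9 and 21.8 FPKM in LY_DMSO, which overlap (log2 fold change 1.2, interval -0.60 to 3.0). The sign of that value rests on cell2_LY replicate 1, without which it was -0.14, and without cell2_LY replicate 2 it was 2.54 and was called. GATA4 had 17 and 6 reads in cell2_LY and 7 and 5 in LY_DMSO. A count of 5 reads, 0.0270 FPKM, has an exact Poisson interval of 0.00876 to 0.0630 FPKM, which covers counting error only. SOX17 had 1 read in cell2_LY and 0 in LY_DMSO, and FOXA2 had 2 and 1.

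The control embryos of the 2 experiments differed in PDGFRA and HNF4A. Both LY_DMSO embryos had more PDGFRA (58.2 and 18.3 FPKM) and more HNF4A (7.08 and 1.53 FPKM) than any of the 3 DMSO embryos, and their range met that of the LY10 embryos. The tables were normalized separately, so these levels are given side by side without a test. For GATA6 both LY_DMSO embryos (58.6 and 61.2 FPKM) lay just under the lowest DMSO embryo (64.8 FPKM) and just above the highest LY10 embryo (57.3 FPKM).

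With treatment from the 16-cell stage APOA1 was called higher, and no other member was called. APOA1 had 181 and 101.3 FPKM in cell16_LY embryos, both above the 55.9 and 21.8 FPKM of LY_DMSO. Its log2 fold change was 1.95 (SE 0.79, 95% interval 0.15 to 3.76), with a limma p of 0.0368 and an adjusted p of 0.620. Of 5 tested genes 1 was called higher and 0 lower, against 3.25% and 1.97% of all tested genes. Both directions together made 5.22% of all tested genes, which became 2.4% without cell16_LY replicate 1 and 9.33% without LY_DMSO replicate 1. The call was lost without LY_DMSO replicate 2 (1.28), without cell16_LY replicate 1 (1.53) and on log2(FPKM + 1) values (1.92).

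PDGFRA had 8.56 and 27.7 FPKM in cell16_LY, and the second of these embryos lay between the 2 controls. Its log2 fold change was -1.08 (interval -2.78 to 0.61), and it was called lower without LY_DMSO replicate 2 (-1.92) or without cell16_LY replicate 2 (-1.93). GATA6 had 38.2 and 54.8 FPKM, both under the controls, with a log2 fold change of -0.39 and a limma p of 0.179. HNF4A, at 1.71 and 4.58 FPKM, lay inside the range of the controls. GATA4 had 20 and 12 reads against 7 and 5, a log2 fold change of 1.40 whose interval reached from -0.92 to 3.72. SOX17 had 0 reads in cell16_LY and FOXA2 had 2.

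Between the start stages, GATA6 was the member that differed most. Both cell16_LY embryos (38.2 and 54.8 FPKM) were below both cell2_LY embryos (88.5 and 91.7 FPKM), a log2 fold change of -0.98 (SE 0.26, 95% interval -1.58 to -0.37). With a limma p of 0.00547 and an adjusted p of 0.193 it was just short of the size needed for a call. Of 5 tested genes 0 were called in either direction, against 5.58% of all tested genes called higher in cell16_LY and 5.77% called lower, and at an unadjusted limma p under 0.05 GATA6 was the 1 member. It was called without cell2_LY replicate 1, without cell16_LY replicate 2, under quantile normalization and with reads on genes as library size, while APOA1 was called higher without cell2_LY replicate 1 (2.09). PDGFRA differed by 0.92 (interval -0.77 to 2.62) and APOA1 by 0.75 (interval -1.05 to 2.55). These intervals are wide enough to hold large changes in either direction. This comparison and both comparisons with LY_DMSO share embryos and are not independent of one another.

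**Figure D2:**
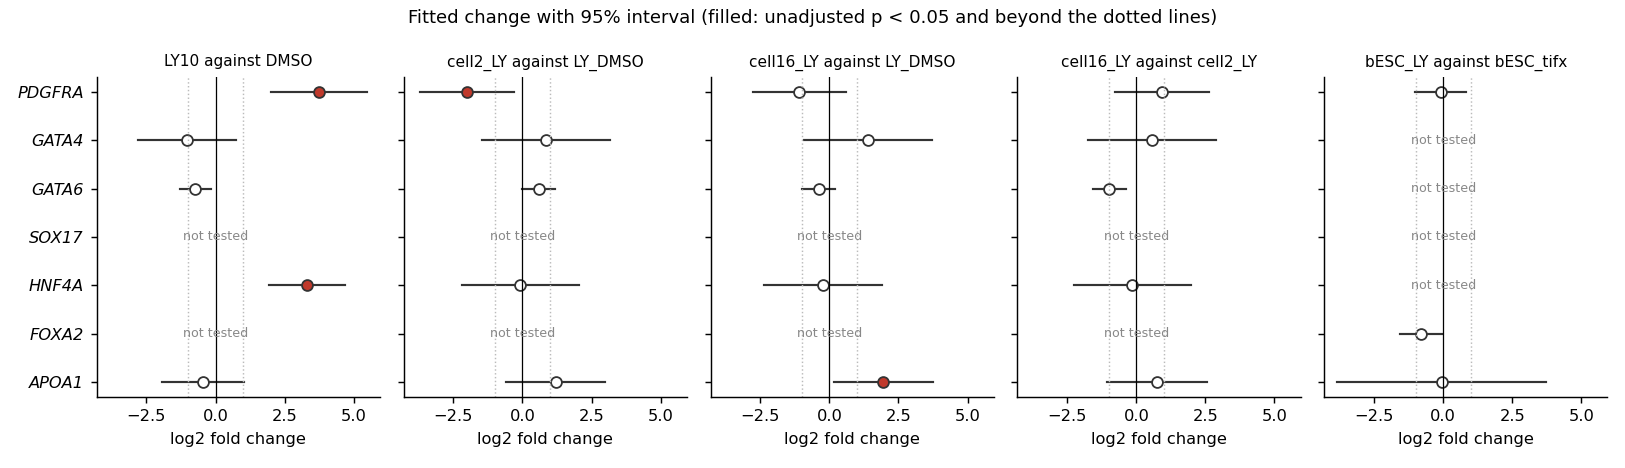
Fitted log2 fold change of each gene (x axis) in the 5 comparisons (panels), with its 95% interval as a line, a vertical line at 0 and dotted lines at -1 and 1. Filled points passed the threshold: PDGFRA and HNF4A higher in LY10, PDGFRA lower in cell2_LY and APOA1 higher in cell16_LY.

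Over the 12 blastocysts PDGFRA and HNF4A had the highest correlation of the 10 member pairs. Values were log2(normalized count + 1) centred on the mean of each table. Pearson's r was 0.89 over all 12, 0.94 within the first table and 0.72 within the second, with 6 embryos each. After centring on each group, which removes treatment, it was 0.82. GATA6 ran the other way from PDGFRA in the first table (-0.88) and less so in the second (-0.25), and after centring on each group r was -0.22. GATA4 and APOA1 had an r of 0.98 in the second table and 0.18 in the first, and GATA4 rests on at most 20 reads per library. The embryos of a group share a treatment and those of a table share a scaling, so these coefficients describe these embryos and carry no test.

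**Figure D3:**
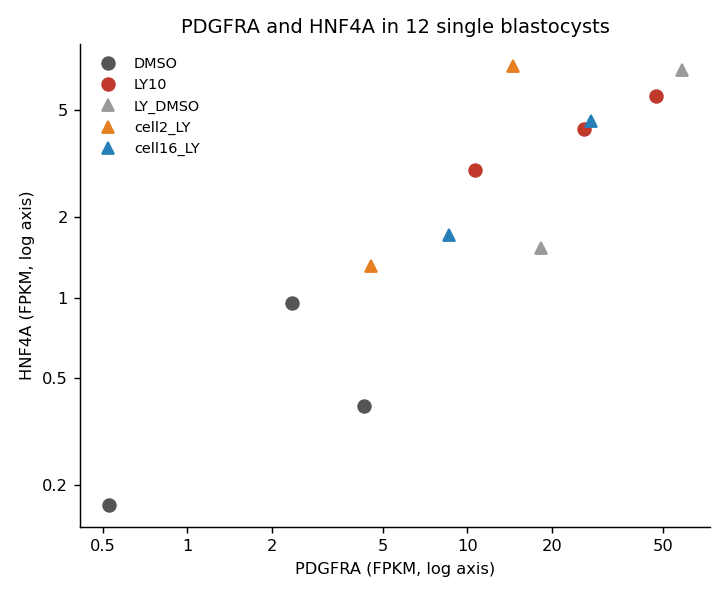
PDGFRA against HNF4A in FPKM in 12 single blastocysts, on log axes, with circles for the first experiment and triangles for the second. The 3 DMSO embryos lie at the lower left, below 5 FPKM of PDGFRA and 1 FPKM of HNF4A, and in each of the 3 groups of the second experiment the embryo higher in PDGFRA is also the higher in HNF4A.

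The genes whose pattern over the 12 blastocysts was most like each member's were taken from 9296 genes that averaged 50 or more normalized counts in both tables. For PDGFRA they were PSME1 (r = 0.98), TARS1 (0.97) and BRCA1 (0.97). For HNF4A they were PSAT1 (0.94), CARS1 (0.93) and NCOA5 (0.92), and for GATA6 they were ESRP2 (0.97), GATAD2B (0.95) and LASP1 (0.93). For APOA1 the values were lower, with PLPP2 (0.87), IL36RN (0.86) and CHD9 (0.86). For GATA4, with 4 to 20 reads per blastocyst, they were ELOF1 (0.97), LOC132342796 (0.86) and SUCO (0.85). Each value is among the highest of 9296 coefficients over 12 embryos that share treatments within groups. High values can arise from such a search alone, so these names are a description and carry no test.

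A wider list of 56 endoderm genes in 6 role groups was read in the same fits. In LY10 against DMSO 28 of the 56 were tested, 3 were called higher and 5 lower, beside 6.2% and 8.51% of all tested genes. All 8 were also called without DMSO replicate 3, when the counts were 4 higher and 8 lower, with OTX2 higher and NID2, BMP2 and PDGFB lower as well. The balance rests on single libraries, since it was 6 higher and 2 lower without DMSO replicate 1, 3 and 2 without DMSO replicate 2, 3 and 3 without LY10 replicate 1 or 3, and 1 and 1 among genes averaging 50 normalized counts. HHEX, RBP4, COL4A2 and NID1 were called with each of the 6 libraries left out, IHH with 4, SERPINH1 with 3, and APOE and LAMB1 with 2. The median log2 fold change was -0.23, beside -0.05 over all tested genes. The calls did not run in 1 direction, and basement membrane genes moved both ways. NID1 (nidogen, a linker of the basement membrane) rose from 1.14, 1.82 and 0.725 FPKM to 6.19, 9.46 and 8.33 FPKM, a log2 fold change of 2.76 with an adjusted limma p of 0.0711. COL4A2, a type IV collagen chain, rose from at most 0.124 FPKM to at least 0.370 FPKM (log2 fold change 2.84). SERPINH1, the collagen chaperone, fell from 2.0, 2.83 and 0.584 FPKM to 0, 0.567 and 0.173 FPKM. LAMB1, a laminin chain, was called lower (-1.07) with overlapping groups.

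Among the lipid and plasma carrier proteins of that list 0 of 5 tested genes were called higher and 2 were called lower. RBP4, the plasma carrier of retinol, fell from 3.15, 9.61 and 8.03 FPKM to 0.132, 0.583 and 0.125 FPKM, a log2 fold change of -4.29 with an adjusted limma p of 0.0783. Only 1, 9 and 1 reads stood behind the LY10 values. APOE was called lower (-2.57) with overlapping groups. HHEX, a transcription factor of anterior endoderm, fell from 3.03, 6.46 and 2.65 FPKM to 1.88, 0.664 and 0.428 FPKM (log2 fold change -2.11), and the other 3 tested transcription factors were not called. IHH, a hedgehog ligand of visceral endoderm, rose from at most 0.521 FPKM to at least 0.870 FPKM (log2 fold change 1.91). Of 4 tested signals and receptors, which include the PDGFRA ligand PDGFA (-0.72), 0 were called, and of 2 tested endocytic genes, DAB2 and LRP2, 0 were called.

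In the second experiment the counts of the wider list moved with single libraries. In cell2_LY 1 of 29 tested genes was called higher and 0 lower, beside 8.71% and 8.34% of all tested genes. Leaving out LY_DMSO replicate 1 gave 1 higher and 4 lower, and leaving out LY_DMSO replicate 2 gave 4 and 0. Leaving out cell2_LY replicate 1 gave 0 and 3, and leaving out cell2_LY replicate 2 gave 1 and 2. The gene called with all libraries was SOX7, a partner of SOX17 in early endoderm, with 31 and 14 reads in cell2_LY and 0 in both LY_DMSO embryos. With LY_DMSO set to 3 reads over both embryos, SOX7 was at least 16.8-fold higher. In cell16_LY against LY_DMSO 0 of 29 were called by limma, also with voom weights, and 1 (SPARC, a matrix glycoprotein) had an unadjusted p under 0.05. Beside this stand 3.25% and 1.97% of all tested genes, and 4 of the list were called lower without LY_DMSO replicate 1, 2 higher without LY_DMSO replicate 2 and 1 lower without cell16_LY replicate 2. Between the start stages PDGFA was lower in cell16_LY, at 1.29 and 1.60 FPKM against 4.74 and 3.39 FPKM (log2 fold change -1.47, SE 0.41). HNF4G, a paralog of HNF4A, was higher, at 0.925 and 1.58 FPKM against 0.221 and 0.491 FPKM (log2 fold change 1.82, SE 0.62), and it was not called without cell2_LY replicate 1 or cell16_LY replicate 2. Those are 1 gene in each direction, beside 5.58% and 5.77% of all tested genes, and the counts were 2 higher and 3 lower without cell2_LY replicate 2. NID1 stood at 15.5 and 16.2 FPKM in LY_DMSO embryos, which is above all LY10 embryos of the first experiment.

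**Figure D4:**
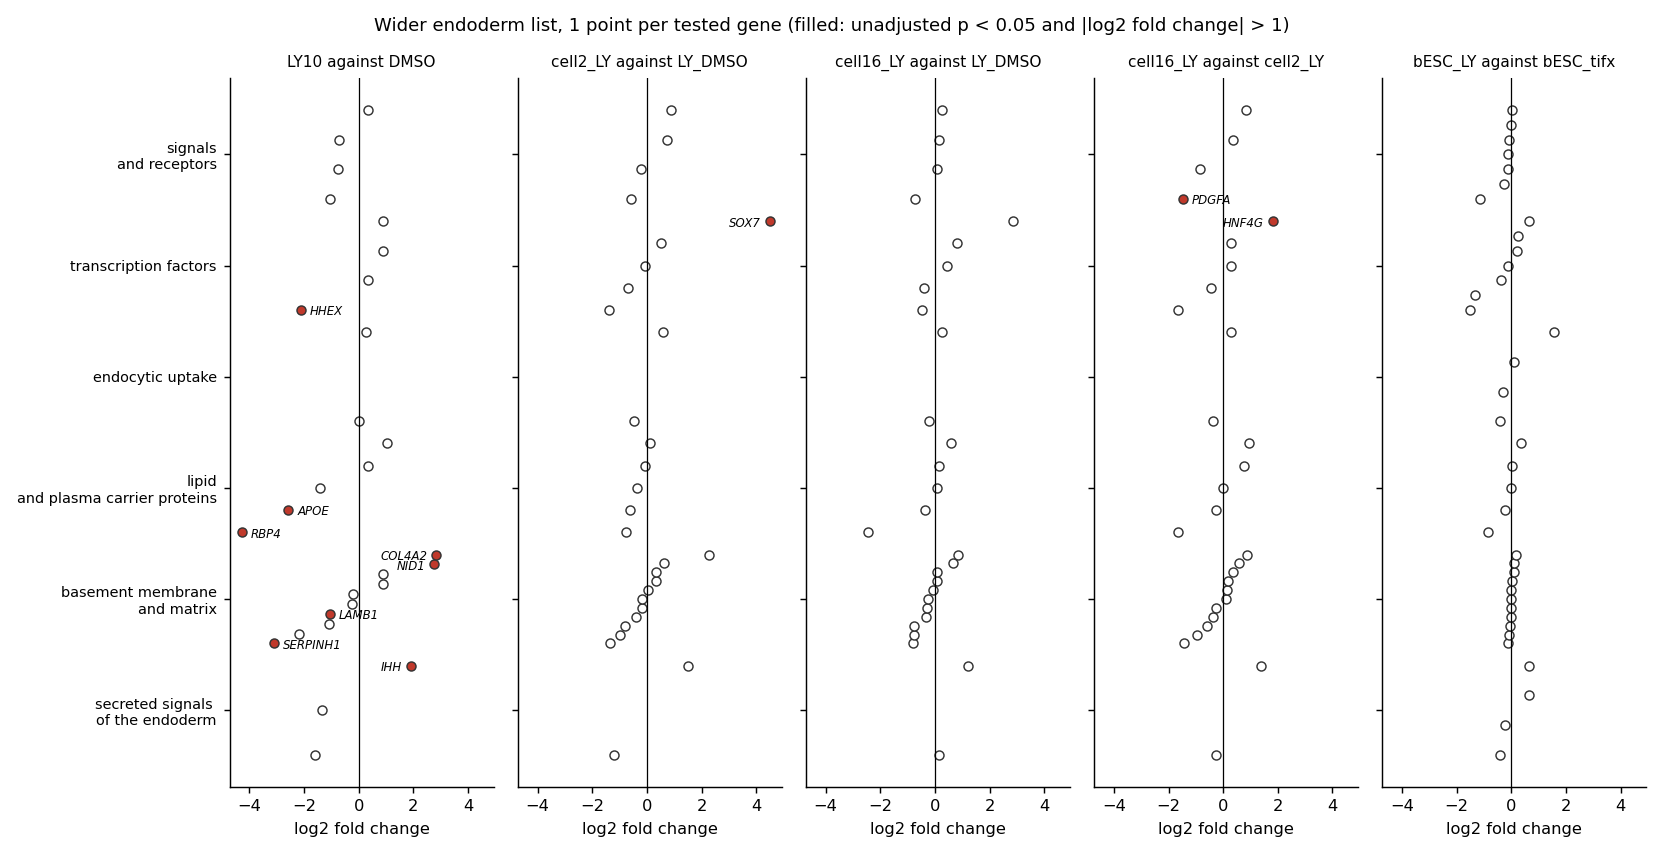
Log2 fold change (x axis) of every tested gene of the wider endoderm list, grouped by role (rows), in the 5 comparisons (panels). Filled and named points passed the threshold, 8 in LY10 against DMSO, 1 in cell2_LY, 2 between the start stages and 0 elsewhere. SOX7 has no reads in LY_DMSO, so its plotted value is a fitted one and not a bound.

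Markers of other cell types were read in the same fits. In LY10 against DMSO 6.2% of all tested genes were called higher and 8.51% lower. In LY10 the epiblast factor POU5F1 was called higher (log2 fold change 1.23) and KLF4, whose groups overlapped, lower (-1.29). The 9 epiblast markers summed to 619 to 925 FPKM against 428 to 601 FPKM in DMSO. POU5F1 led that sum in every LY10 embryo (481, 611 and 328 FPKM) and DPPA3 in every DMSO embryo (260, 210 and 215 FPKM). Among the 9 tested markers, 5 had a positive and 4 a negative log2 fold change. Of 7 tested fibroblast markers 4 were called lower and 0 higher, and the whole list of 12 summed to 42.7 to 77.9 FPKM against 141 to 193 FPKM. ACTA2 led that sum in 5 of the 6 embryos and LUM in DMSO replicate 3. PRRX1 was at 0 in all 6 of these embryos and PDGFRB had at most 0.508 FPKM. In this table the fibroblast sum was lower in LY10 while PDGFRA was higher, and within LY_DMSO of the second table the sum was 31.3 and 330 FPKM. Without DMSO replicate 3 the 4 fibroblast calls and those of POU5F1 and KLF4 held and THY1 was called lower too. The fibroblast calls of COL1A2, DCN and ACTA2 were lost without DMSO replicate 2, and that of COL1A2 also without LY10 replicate 2. Those of POU5F1 and KLF4 held with each of the 6 libraries left out. Trophectoderm markers summed to 2573 to 6458 FPKM in DMSO and 3727 to 9548 FPKM in LY10 and overlapped, while GATA6 did not. Of 8 tested trophectoderm markers limma called 0, and without DMSO replicate 3 it called CDX2 and KRT8 higher. In the second table the trophectoderm factors CDX2 and GATA2 were called higher in cell2_LY than in LY_DMSO and lower in cell16_LY than in cell2_LY. They were 2 of 9 tested trophectoderm markers, beside 8.71% and 5.77% of all tested genes called in those directions. The values of GATA6 went the same way in both comparisons without a call. In cell16_LY against LY_DMSO, where GATA6 stood below both controls, 0 of 9 tested trophectoderm markers were called. There 3.25% of all tested genes were called higher and 1.97% lower. The call of CDX2 between the start stages was lost without any 1 of the 4 embryos compared. Of the cumulus and granulosa list, HSD3B1 was called lower in LY10 with overlapping groups, though not without DMSO replicate 2 or 3 or LY10 replicate 1 or 2. STAR was called higher in cell2_LY, though not without either cell2_LY embryo, LY_DMSO replicate 2 or either cell16_LY embryo. CYP11A1, a steroid enzyme, was called higher in cell16_LY beside APOA1, though not without cell16_LY replicate 1 or LY_DMSO replicate 1. In cell16_LY the list of 12 summed to 34.8 to 113 FPKM, led by CYP11A1 (84.5 and 19.7 FPKM). In LY_DMSO it summed to 12.45 to 39.4 FPKM. Each cumulus and granulosa call was 1 gene, of 7 tested in LY10 and of 5 tested in cell2_LY and in cell16_LY. A count of 0 or 1 in marker lists this short cannot be told from the share over all tested genes. The part of these cell types in the results was not tested.

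In bESCs the hypoblast genes were low, with another order than in blastocysts, and 0 of the 3 tested were called. At the threshold 0.0375% of all 16012 tested genes were called higher and 0.0375% lower. GATA6 had 4 and 8 reads in bESC_tifx and 0 and 17 in bESC_LY, or at most 0.299 FPKM, although these libraries were the deepest of the study. GATA4, SOX17, GATA6 and HNF4A were all below the average of 10 normalized counts needed for a test. The highest members were PDGFRA, FOXA2 and APOA1. The fibroblast list summed to 77.2 to 89.8 FPKM in the bESC libraries, led by COL1A1 in each, and its part in the level of PDGFRA was not tested.

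FOXA2, a pioneer factor of definitive and visceral endoderm, had 3.26 and 2.58 FPKM in bESC_tifx (227 and 193 reads) and 1.71 and 1.59 FPKM in bESC_LY (116 and 119 reads). No blastocyst had more than 3 reads of it. Both LY libraries were below both controls, with a log2 fold change of -0.81 (SE 0.28, 95% interval -1.56 to -0.06). The limma p was 0.0391 and the adjusted p was 1.00, and the size was under the threshold. At an unadjusted limma p under 0.05 it was the 1 member of the 3. PDGFRA had 1.77 and 2.69 FPKM in bESC_tifx and 1.63 and 2.54 FPKM in bESC_LY, a log2 fold change of -0.10 with an interval of -1.01 to 0.81.

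APOA1 in bESCs followed the number of the library and not LY. The libraries numbered 2 had 11.8 (bESC_tifx) and 9.0 FPKM (bESC_LY), and those numbered 3 had 1.19 and 1.45 FPKM. The fitted log2 fold change was -0.06, with an interval of -3.84 to 3.72. SOX17 was at 0 in both libraries numbered 2 and had 8 and 24 reads in those numbered 3. GATA4 likewise had 0 and 3 reads against 12 and 21. CDX2 stood at 0.368 and 0.243 FPKM in the libraries numbered 2 and at 13.7 and 15.2 FPKM in those numbered 3. The labels do not say what the number stands for. Of the wider list 38 of 56 genes were tested in bESCs and 0 were called in either direction by limma, also with voom weights, and 0 had an unadjusted limma p under 0.05. With the library number as a block 0.912% of all tested genes were called, and SOX7 was the 1 gene of the list called lower (log2 fold change -1.34), while 1 gene was called higher without a filter. The median of their log2 fold changes was -0.03, beside -0.01 over all tested genes.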

How the data were processed

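Levels were taken from 3 deposited tables, in FPKM, which the authors made from single-embryo SMART-seq and bESC libraries. Per the methods and the submitters' processing notes, reads were trimmed with fastp, aligned (STAR and HISAT2 2.0.5 are both named), counted with featureCounts 1.5.0-p3 and compared with DESeq2 1.20.0. A genome build is not given in the sources used here. Multiplying FPKM by gene length and dividing by 1 constant for each library gave whole numbers for 100% of values (tolerance 0.02), which are reads per gene, and that constant gave the authors' library size. Those library sizes followed median-of-ratios size factors, to 1.27% in the first blastocyst table, 0% in the second and 0.181% in bESCs. Fold changes and p-values of the authors' own comparisons, also in the tables, were not used.

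Read counts were scaled from the authors' library size to the geometric mean of each table (10651692, 15246235 and 30547774). Genes averaging 10 or more normalized counts were fitted with limma 3.58.1 (R 4.3.3) on log2(normalized count + 1), lmFit and eBayes with a trend, without covariates, and adjusted by Benjamini-Hochberg over all tested genes. The second blastocyst table was 1 fit of 3 groups. Fold changes are on that scale and understate low genes. The fits were run on simulated data that had the same relative spread for every gene and no library standing apart. That simulation does not cover genes as variable between embryos as PDGFRA. Intervals are at 95%, and limits of 3 reads and Poisson intervals cover counting error only, since no source names molecular identifiers. Alternatives changed the pseudocount (0.5 or 5), the filter (none, or an average of 50), and the scaling (size factors or quantile normalization), or used sample weights, voom on the recovered reads, log2(FPKM + 1) for genes averaging 0.5 FPKM, the replicate number as a block, fits of 2 groups and each library left out. Reads on genes as library size and a block with crossed numbers were added after seeing the data.

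Members and lists were chosen with earlier results of these data known. Wider-list genes named were those called with groups that do not overlap, up to 4 per role and comparison by smallest p, and overlapping calls are named as such. NID1 in LY_DMSO, SPARC in cell16_LY, PDGFA in LY10, DAB2, LRP2 and CDX2 in bESCs were named after their values were seen, as were genes called with a library left out or with a block. Members were compared with the 3 genes of highest r. All labels name the same batch, so batches were not compared. TDGF1 was not read in the blastocyst tables, nor SOX2 in the bESC table. Promoter and other sequences were not analysed here.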

Additional observations from a re-analysis of the deposited data

Results flagged for a closer look

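PDGFRA moved in opposite directions under LY from the 2-cell stage in the 2 experiments, without overlap in either. Its log2 fold change was 3.74 in LY10 against DMSO and -2.01 in cell2_LY against LY_DMSO. GATA6 also differed in sign, at -0.73 in LY10 against DMSO and 0.59 in cell2_LY against LY_DMSO, again with every treated embryo on 1 side of the controls. GATA4 had -1.03 in LY10 against DMSO and 1.40 in cell16_LY against LY_DMSO, from 4 to 20 reads per library. The difference between experiments was not tested for any of these, because the tables were normalized separately. Each pair of opposite signs was found by looking over all members and comparisons. With 2 embryos per group the smallest possible exact permutation p is 0.333, and with 3 it is 0.1, so a lack of overlap carries little weight.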

How the results depend on the processing

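Over 23 log2 fold changes of members and 399 alternative values, 367 kept direction and side of the threshold, 6 kept direction and lost the call, 10 kept it and gained a call, and 16 changed sign. In LY10 against DMSO the calls of PDGFRA (2.88 to 4.38) and HNF4A (1.82 to 3.91) held under all 17 alternatives, and the count stayed at 2 with each replicate left out (2 to 2). Leaving out single replicates moved the count between 0 and 1 in cell2_LY against LY_DMSO, 0 and 2 in cell16_LY against LY_DMSO, 0 and 2 between the start stages and 0 and 0 in bESCs. Quantile normalization took the cell2_LY count to 0 and that between the start stages to 1 (GATA6), log2(FPKM + 1) took the cell16_LY count to 0, and reads on genes as library size took that between the start stages to 1. The last choice moved the median of all genes to 0.24 in cell2_LY against LY_DMSO, where higher and lower calls went from 1265 and 1211 to 1842 and 674, and to -0.18 between the start stages, where they went from 810 and 839 to 421 and 1261. Signs changed for APOA1 in LY10 with sample weights (0.043) and for HNF4A in cell2_LY with reads on genes as library size (0.15). With replicates left out, APOA1 ranged from -0.89 to 0.34 in LY10, -0.14 to 2.54 in cell2_LY, -0.59 to 2.09 between the start stages and -1.70 to 1.58 in bESCs. HNF4A ranged from -1.32 to 1.15 in cell2_LY, -1.33 to 0.87 in cell16_LY and -1.38 to 1.09 between the start stages. GATA4 ranged from -0.19 to 0.75 between the start stages, and PDGFRA from -0.42 to 0.22 in bESCs. The cause of these changes was not tested. In the second blastocyst table size factors equal the authors' scaling, so that alternative changes nothing there. Filters, replicate blocks, fits of 2 groups and leaving out an embryo of a group not compared keep each fitted log2 fold change. Their direction was fixed in advance, and the 367 values include them.

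With the replicate number as a block, the cell2_LY count became 2 (PDGFRA and APOA1), and FOXA2 in bESCs had a log2 fold change of -0.81 with an adjusted limma p of 0.0340. Same-numbered bESC libraries deviated together across 16012 genes (r = 0.79), but 2 pairs and the labels do not establish pairing. In the blastocyst tables r was between -0.23 and 0.17. With cell16_LY numbers crossed, the cell16_LY count was 2.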
